A study of Mus musculus with 4 samples.

Results

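The genes described here mark dividing cells. They are 44 genes chosen by name, 20 that are used around DNA replication (S phase) and 24 that are used from G2 to the end of mitosis (G2/M), of 32285 genes in the count matrices. Each of the 44 symbols was found once. The data are droplet single-cell RNA profiles of the colon of C57/BL6J mice, made with a 3' kit in 2 batches and counted as unique molecular identifiers (UMIs, 1 per captured RNA molecule). The study combined a JUP-KO, which lacks plakoglobin, a protein of cell junctions, with dextran sulfate sodium (DSS), which is toxic to the surface of the colon and inflames it. Cells of each condition were tagged with 1 hashtag antibody, mixed within a batch, sorted for viability and loaded together.

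The antibody features carry 4 names. TG_DSS stands for JUP-KO given DSS and Ctrl_WT for untreated wild type, whether the features are read by name or in the order of the antibody numbers. Read by name, TG_WT is untreated JUP-KO and Ctrl_DSS is wild type given DSS; read by number, these 2 change places. Groups are therefore called cells labelled with a tag name. Jup summed over epithelial cells, in batches 1 and 2, came to 21.2 and 78.5 CPM (UMIs of the gene per 1000000 UMIs) in cells labelled TG_DSS, 76.0 and 104.8 CPM in TG_WT, 13.8 and 8.75 CPM in Ctrl_DSS, and 68.5 and 65.9 CPM in Ctrl_WT. It was lowest in both batches in cells labelled Ctrl_DSS, which are wild type by name and JUP-KO by number. In TG_DSS, JUP-KO under both readings, Jup was low in batch 1 and above Ctrl_WT in batch 2, so it does not settle the reading. The part of DSS and of the mix of epithelial cells in these Jup levels was not tested. Where in the gene the JUP-KO acts is not known here, so 3' counts may miss it. The allele of the JUP-KO, the tissue it acts in, the dose and duration of DSS, the age and number of the mice, and whether batches hold separate mice are not given in the sources used here, so the p-values speak of the spread among these samples, and part of that spread may be technical.

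After filters the batches held 7155 and 6471 cells with medians of 12309 and 7091 UMIs, and 14 barcodes occurred in both. Single tags were called in 1245 and 1314 cells for TG_DSS, 521 and 1263 for TG_WT, 407 and 492 for Ctrl_DSS, and 177 and 92 for Ctrl_WT. Cells with no tag over the threshold made up 63.4% and 40.3%. Cell classes were gated on summed markers, none of which is among the 44 genes: crypt (Lgr5, Ascl2, Smoc2 and others), goblet (mucus-secreting), colonocyte (absorptive, surface-type), other epithelial, enteroendocrine and tuft cells, T cells, mononuclear myeloid cells (macrophages, monocytes and dendritic cells) and neutrophils. Crypt-gated cells had medians of 9.67 and 9.54 crypt-marker UMIs per 10000, and colonocyte-gated cells had 0 in both batches. Colonocyte markers had medians of 2.73 and 2.61 per 10000 in crypt-gated cells, against 105.2 and 133 in colonocyte-gated cells. These medians follow from the gate limits and only describe the gate. Crypt-gated cells needed at least 4 crypt-marker and under 20 colonocyte-marker UMIs per 10000. Colonocyte-gated cells needed at least 40 colonocyte-marker and under 4 crypt-marker UMIs per 10000.

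A cell that commits to division first assembles the MCM helicase on DNA, makes deoxynucleotides and copies its genome with the help of a sliding clamp, PCNA. Cyclin E with its kinase starts this step, and cyclins A and B with CDK1 drive the later entry into mitosis. There, Polo-like and Aurora kinases, kinesins and kinetochore proteins help to separate the chromosomes, and the anaphase-promoting complex destroys the cyclins. Genes of the first group are classical targets of E2F factors. Many of the second are held down by the DREAM complex and later switched on by MuvB with B-MYB and FOXM1, acting through an element called the CHR and through CCAAT boxes bound by NF-Y. In the colon, division takes place in the lower crypt, in stem cells and their transit-amplifying daughters. Surface colonocytes have left the cycle, and mature neutrophils no longer divide.

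The promoters show how the gene lists differ in sequence. RefSeq windows (GRCm38.p6, from 250 bases before to 50 after the start of the gene) were found for 37 of the 44 genes, 17 of the S list and 20 of the G2/M list. Tpx2, Aurkb, Gins2, Ccna2, Ccne2, Stmn1 and Mcm4 had no entry, and Mcm7 and Uhrf1 had more than 1, of which the one with more matches was counted for each motif. Searched on both strands were 4 E2F words (TTTCCCGC, TTTGGCGC, TTTCGCGC and TTTGCCGC), 2 CHR words (TTTGAA and TTTAAA) and CCAAT. Mcm6 and Mcm5, subunits of the replicative helicase, stand for the S list, and Ccnb2 (cyclin B2) and Cdc20 (an activator of the anaphase-promoting complex) for the G2/M list. Hmgb2, a chromatin protein, is added because its levels departed from the rest of its list in neutrophils. Each is printed 5′ to 3′ on the strand of its gene, with the matched words in capitals; neighbouring matches may overlap, as where an E2F word in Mcm6 or Mcm5 runs into the reverse complement of a different E2F word.
Mcm6, chr1:128359656-128359955, minus strand: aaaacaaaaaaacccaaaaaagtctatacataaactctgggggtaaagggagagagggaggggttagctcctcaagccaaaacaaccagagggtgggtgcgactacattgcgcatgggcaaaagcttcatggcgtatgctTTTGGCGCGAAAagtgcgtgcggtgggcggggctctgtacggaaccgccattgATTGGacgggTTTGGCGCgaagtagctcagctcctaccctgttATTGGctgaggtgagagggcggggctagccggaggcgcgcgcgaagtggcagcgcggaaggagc
Mcm5, chr8:75109259-75109558, plus strand: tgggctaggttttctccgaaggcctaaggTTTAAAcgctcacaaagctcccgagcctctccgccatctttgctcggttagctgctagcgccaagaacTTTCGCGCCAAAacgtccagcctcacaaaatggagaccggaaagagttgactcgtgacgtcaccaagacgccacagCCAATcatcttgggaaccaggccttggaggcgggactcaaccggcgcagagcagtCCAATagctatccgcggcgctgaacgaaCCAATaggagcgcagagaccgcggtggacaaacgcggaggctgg
Ccnb2, chr9:70421505-70421804, minus strand: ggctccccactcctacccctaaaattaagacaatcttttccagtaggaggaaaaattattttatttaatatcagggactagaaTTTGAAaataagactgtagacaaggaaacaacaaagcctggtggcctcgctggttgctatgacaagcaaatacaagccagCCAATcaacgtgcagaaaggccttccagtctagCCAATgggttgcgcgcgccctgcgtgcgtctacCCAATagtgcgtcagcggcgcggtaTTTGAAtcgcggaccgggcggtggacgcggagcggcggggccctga
Cdc20, chr4:118437294-118437593, minus strand: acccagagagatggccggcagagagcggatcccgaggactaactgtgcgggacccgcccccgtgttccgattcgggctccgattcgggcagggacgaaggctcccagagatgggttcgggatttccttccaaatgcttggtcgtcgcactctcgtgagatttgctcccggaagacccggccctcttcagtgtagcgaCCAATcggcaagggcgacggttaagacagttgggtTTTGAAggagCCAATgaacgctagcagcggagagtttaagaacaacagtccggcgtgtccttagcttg
Hmgb2, chr8:57511593-57511892, plus strand: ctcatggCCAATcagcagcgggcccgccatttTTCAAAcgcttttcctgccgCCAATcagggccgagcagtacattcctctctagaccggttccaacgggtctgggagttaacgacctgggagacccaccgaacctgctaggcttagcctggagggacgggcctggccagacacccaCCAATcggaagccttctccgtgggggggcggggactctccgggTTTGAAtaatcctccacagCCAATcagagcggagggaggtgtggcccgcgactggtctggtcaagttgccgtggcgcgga

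Mcm6 held 3 E2F words, 2 CCAAT boxes and no CHR word, and Mcm5 held 2 E2F words, 1 CHR word and 3 CCAAT boxes. Ccnb2 held 2 CHR words with 3 CCAAT boxes, Cdc20 held 1 with 2, and Hmgb2 held 2 with 4, and none of these held an E2F word. Over the lists, an E2F word stood in 8 of 17 S promoters (47.1%) and in 1 of 20 G2/M promoters (5.0%, Cdk1), against 2.6% of the promoters of all 27025 genes. A CHR word stood in 7 of 17 S promoters (41.2%) and in 18 of 20 G2/M promoters (90.0%), against 30.6% of all. CCAAT stood in 12 of 17 (70.6%) and 18 of 20 (90.0%), against 41.1% of all. CHR and CCAAT stood together in 6 of 17 (35.3%) and 17 of 20 (85%), against 12.2% of all. The S list was thus the richer in E2F words and the G2/M list in CHR words. A match is a description of the letters and not evidence of binding.

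Over the classes, both lists were highest in crypt-gated cells among epithelial classes. Summed over the 20 S genes, crypt-gated cells held 1296 and 1114 CPM in batches 1 and 2, other epithelial cells 757 and 588 CPM, goblet-gated cells 489.6 and 351 CPM and colonocyte-gated cells 147 and 109.8 CPM. The sums of other epithelial and goblet-gated cells lay between those of crypt-gated cells and colonocytes in both batches. The G2/M list is summed here without Hmgb2 and Stmn1, which alone made up about as many UMIs as the other 22 genes in crypt-gated cells. This sum was 1844 and 1571 CPM in crypt-gated cells, 1208 and 1036 CPM in other epithelial cells, 561 and 292 CPM in goblet-gated cells and 83.9 and 26.5 CPM in colonocyte-gated cells. Few cells carried the tagged part of the colonocyte sum of batch 1, whereas in its 1343 untagged cells the richest gave 73 of 798 UMIs (9.15%). In the tagged cells 1 cell gave 105 of 111 UMIs in TG_DSS (94.6%), 257 of 298 in TG_WT (86.2%), 222 of 242 in Ctrl_DSS (91.7%) and 365 of 434 in Ctrl_WT (84.1%). Among leukocytes the S sum was 869 and 833 CPM in T cells, 167 and 155 CPM in mononuclear myeloid cells and 74.0 and 58.3 CPM in neutrophils. The G2/M sum was 1091 and 467 CPM in T cells, 130.4 and 49.0 CPM in mononuclear myeloid cells and 63.9 and 32.4 CPM in neutrophils. T cells stood above both myeloid classes for both lists in both batches. Single cells weighed heavily in the G2/M sums of batch 1. In T cells, 1 cell gave 210 of 237 UMIs in TG_DSS and 1 cell gave 82 of 88 in Ctrl_DSS. In mononuclear myeloid cells labelled Ctrl_WT, 1 cell gave 103 of 106 UMIs. Enteroendocrine cells (469.8 and 316 CPM for S, 309 and 115 CPM for G2/M) and tuft cells (255 and 453 CPM for S, 302 and 119.6 CPM for G2/M) rest on 85 to 130 and 40 to 66 cells a batch. In such sums, more dividing cells and more RNA per dividing cell cannot be told apart.

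**Figure D1:**
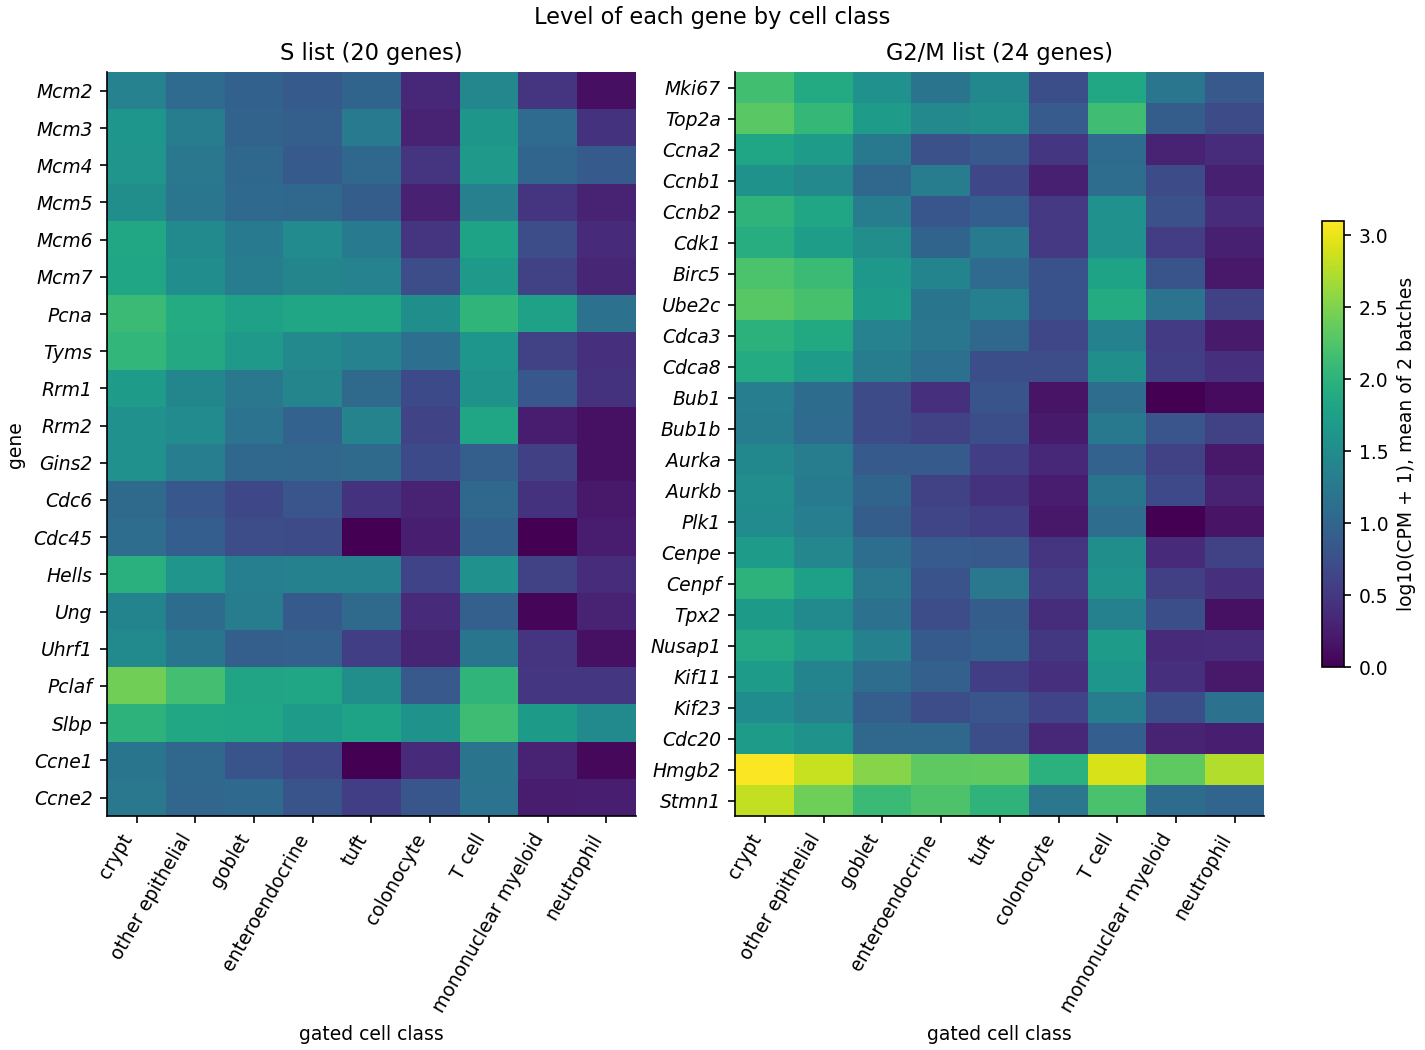
Colour gives the level of each of the 44 genes, as log10(CPM + 1) averaged over 2 batches, in 9 gated cell classes (columns), with the S list on the left and the G2/M list on the right. The crypt column is the brightest for 15 of 20 S genes and all 24 G2/M genes, and T cells are brightest for the other 5 S genes. Hmgb2 is bright in every class, neutrophils included.

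Gene by gene, the crypt-gated level was above every other class in both batches for 12 of 20 S genes and 20 of 24 G2/M genes. The mean over batches was highest in crypt-gated cells for 15 S and all 24 G2/M genes, and highest in T cells for Mcm2, Mcm3, Mcm4, Rrm2 and Slbp. The S genes with most UMIs in crypt-gated cells were Pclaf (268 ± 36 CPM), Pcna (129 ± 14), Tyms (112 ± 11), Slbp (101 ± 6.3) and Hells (90.8 ± 4.0), as mean ± SD of 2 batches. Those of the G2/M list were Hmgb2 (1189.8 ± 71 CPM), Stmn1 (653 ± 66), Top2a (204 ± 14), Ube2c (196 ± 45) and Birc5 (165 ± 22). The S genes spanned 10.7 CPM (Cdc6) to 268 CPM (Pclaf) and the G2/M genes 19.1 CPM (Bub1b) to 1189.8 CPM (Hmgb2). These are UMIs counted at the 3' end of transcripts and not scaled by gene length. The ratio of crypt-gated to goblet-gated levels ran from 1.25 (Ung) to 4.84 (Mcm3) over the S list, with a median of 2.98. Over the G2/M list it ran from 2.58 (Cdk1) to 6.002 (Cenpf), with a median of 4.07. Set against T cells, the crypt-gated level was 0.529 times as high for Rrm2 and 4.77 times as high for Gins2, with a median of 1.29 for S; for G2/M the ratio ran from 1.14 (Bub1b) to 6.87 (Cdc20), with a median of 2.32. Levels in batch 2 relative to batch 1 of crypt-gated cells had medians of 0.868 for S and 0.840 for G2/M.

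The tests between classes were made on UMI sums of tagged cells, 1 per class, tag and batch with at least 10 cells, in 1 edgeR fit over 45 sums in which tag and batch together form a block. The class CPM levels given beside the fold changes also count untagged cells, 868 crypt-gated and 1343 colonocyte-gated cells in batch 1. Ratios of these CPM levels and fitted changes therefore need not match in size. In crypt-gated against colonocyte-gated cells, 43 of the 44 genes rose and none fell. Of all 12408 genes tested, 25.1% rose and 21.7% fell. The median log2 fold change was 3.27 for the S list and 2.95 for the G2/M list, against 0.13 for all genes. Ccne2 (cyclin E2) was the 1 gene that missed the threshold, at 0.79 ± 0.40 (SE, adjusted p = 0.0996); DESeq2 called all 44 higher. The G2/M changes are set against colonocyte sums in which 1 cell gave most of the UMIs in batch 1, and the part of those cells in the changes was not tested. In crypt-gated against goblet-gated cells, 40 of 44 rose and none fell, where 14.9% of all genes rose and 16.1% fell. Here 16 of 20 S genes (median 1.42) and all 24 G2/M genes (median 1.90) passed, against a median of 0.01 over all genes. The S genes that missed it were Cdc6, which loads the helicase, at 1.26 ± 0.52 (SE, adjusted p = 0.0564), Slbp at 0.53 ± 0.22 (SE, adjusted p = 0.0663), Ung at −0.09 ± 0.28 (SE, adjusted p = 0.863) and Ccne2 at 0.24 ± 0.37 (SE, adjusted p = 0.677). Without batch 1 the count against goblet cells was 23, and Mcm6 was among those lost, at 1.56. These 2 comparisons share the crypt-gated sums.

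**Figure D2:**
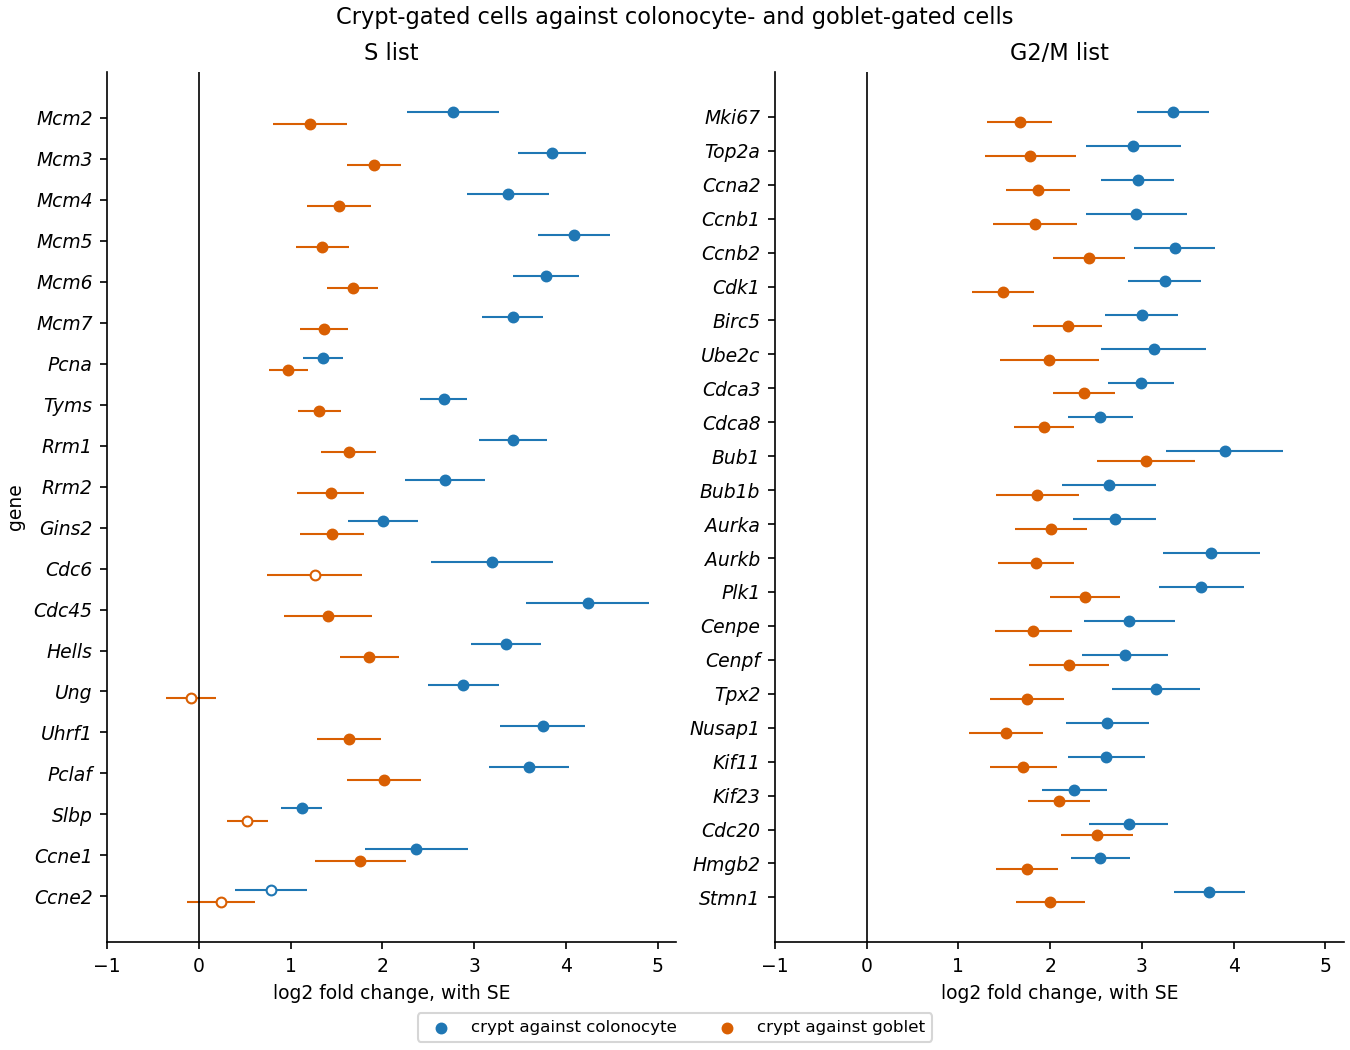
Points give the fitted log2 fold change of each gene in crypt-gated cells against colonocyte-gated cells (blue) and goblet-gated cells (orange), with the SE as bars, for the S list (left) and the G2/M list (right). Filled points passed an adjusted p of 0.05 and open points did not. Every blue point lies right of 0, and Ung and Ccne2 lie near 0 against goblet cells.

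The 6 subunits of the MCM helicase rose together in crypt-gated cells, by log2 fold changes of 2.77 (Mcm2) to 4.09 (Mcm5) against colonocytes and 1.21 (Mcm2) to 1.91 (Mcm3) against goblet cells. Mcm6 had 75.1 and 65.4 CPM in crypt-gated cells in batches 1 and 2, 20.2 and 15.3 CPM in goblet-gated and 3.16 and 0.912 CPM in colonocyte-gated cells. The classes did not overlap. Its log2 fold change was 3.78 ± 0.36 (SE, adjusted p = 2.50e-12) against colonocytes and 1.68 ± 0.28 (SE, adjusted p = 4.97e-06) against goblet cells. Mcm3 and Mcm5 rose by 3.85 ± 0.37 (SE, adjusted p = 5.24e-12) and 4.09 ± 0.39 (SE, adjusted p = 4.75e-12) against colonocytes, and Mcm7 by 3.42 ± 0.33 (SE, adjusted p = 6.96e-12). The helicase partners Cdc45 and Gins2 rose by 4.24 ± 0.67 and 2.01 ± 0.38 against colonocytes and by 1.41 ± 0.48 and 1.45 ± 0.35 against goblet cells.

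Genes that work at the fork and supply nucleotides followed. Pclaf, a PCNA-binding factor, had 294 and 243 CPM in crypt-gated cells, 80.9 and 46.0 CPM in goblet-gated and 10.8 and 1.82 CPM in colonocyte-gated cells, log2 fold changes of 3.59 ± 0.44 against colonocytes and 2.02 ± 0.40 against goblet cells. Pcna itself had 139 and 119.7 CPM in crypt-gated, 66.1 and 50.8 CPM in goblet-gated and 36.5 and 31.3 CPM in colonocyte-gated cells. Its rise was smaller, 1.35 ± 0.21 (SE, adjusted p = 7.49e-07) and 0.98 ± 0.21 (SE, adjusted p = 3.25e-04). Tyms, which makes thymidylate, rose by 2.67 ± 0.26 (SE, adjusted p = 4.43e-12) against colonocytes and 1.31 ± 0.23 (SE, adjusted p = 1.57e-05) against goblet cells. The ribonucleotide reductase subunits Rrm1 and Rrm2 rose by 3.42 ± 0.37 and 2.68 ± 0.43 against colonocytes and 1.63 ± 0.30 and 1.44 ± 0.37 against goblet cells. Rrm2 had 41.4 and 30.8 CPM in crypt-gated and 4.19 and 2.35 CPM in colonocyte-gated cells. Hells and Uhrf1, which act on DNA methylation behind the fork, rose by 3.35 ± 0.38 and 3.75 ± 0.46 against colonocytes and by 1.86 ± 0.32 and 1.63 ± 0.35 against goblet cells.

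Slbp, which binds the ends of histone mRNA, had the lowest ratio of crypt-gated to colonocyte-gated CPM in the S list, and cyclins E1 and E2 differed from each other. Slbp had 105 and 96.5 CPM in crypt-gated, 73.8 and 58.7 CPM in goblet-gated and 39.4 and 36.9 CPM in colonocyte-gated cells, a crypt to colonocyte ratio of 2.65. In the test it rose by 1.12, and the smallest fitted change of the S list was that of Ccne2. Ccne1 had 14.1 and 15.8 CPM in crypt-gated, 5.98 and 4.95 CPM in goblet-gated and 1.47 and 1.25 CPM in colonocyte-gated cells, and rose by 2.37 ± 0.56 (SE, adjusted p = 4.05e-04) against colonocytes and 1.76 ± 0.49 (SE, adjusted p = 0.00439) against goblet cells. Ccne2 had 16.9 and 16.4 CPM, 12.3 and 8.75 CPM and 5.79 and 5.86 CPM in the same classes and missed the threshold in both tests. Ung, a uracil glycosylase of DNA repair, rose by 2.88 ± 0.39 (SE, adjusted p = 2.55e-08) against colonocytes and had 24.6 and 23.8 CPM in crypt-gated against 19.6 and 19.2 CPM in goblet-gated cells.

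Among the mitotic cyclins and their kinase, Ccna2, Ccnb1, Ccnb2 and Cdk1 rose by log2 fold changes of 2.94 (Ccnb1) to 3.36 (Ccnb2) against colonocytes and 1.49 (Cdk1) to 2.43 (Ccnb2) against goblet cells. Ccnb1 had 41.7 and 32.8 CPM in crypt-gated, 11.97 and 8.005 CPM in goblet-gated and 1.34 and 0.432 CPM in colonocyte-gated cells. Ccnb2 had 102 and 105 CPM, 23.6 and 15.7 CPM and 3.43 and 1.20 CPM in the same classes, and rose by 2.43 ± 0.39 (SE, adjusted p = 2.77e-06) against goblet cells. The classes did not overlap for either cyclin. Cdk1 had 89.8 and 78.6 CPM in crypt-gated and 41.4 and 23.8 CPM in goblet-gated cells and rose by 1.49 ± 0.34 (SE, adjusted p = 4.44e-04). Mki67, which coats mitotic chromosomes, had 150 and 137 CPM in crypt-gated, 49.0 and 23.4 CPM in goblet-gated and 6.77 and 2.45 CPM in colonocyte-gated cells. It rose by 3.33 ± 0.39 (SE, adjusted p = 1.10e-09) against colonocytes, a value of 5.16 without batch 1, and by 1.67 ± 0.36 (SE, adjusted p = 2.41e-04) against goblet cells. Top2a, the topoisomerase that untangles sister DNA, had 214 and 194 CPM, 67.4 and 34.1 CPM and 11.5 and 1.92 CPM, and rose by 2.91 ± 0.52 and 1.78 ± 0.50.

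The mitotic kinases Plk1, Aurka and Aurkb rose by 2.70 (Aurka) to 3.76 (Aurkb) against colonocytes and 1.84 (Aurkb) to 2.38 (Plk1) against goblet cells. Birc5 and Cdca8, which sit with Aurkb in the chromosomal passenger complex, rose by 3.00 ± 0.40 and 2.55 ± 0.36 against colonocytes and 2.19 ± 0.38 (SE, adjusted p = 9.32e-06) and 1.94 ± 0.33 (SE, adjusted p = 5.92e-06) against goblet cells. Kinetochore and checkpoint genes (Bub1, Bub1b, Cenpe and Cenpf) rose by 2.64 (Bub1b) to 3.90 (Bub1) and 1.82 (Cenpe) to 3.04 (Bub1). All of these groups rose against both classes. Spindle proteins and kinesins (Tpx2, Nusap1, Kif11 and Kif23) rose by 2.26 (Kif23) to 3.16 (Tpx2) against colonocytes and 1.52 (Nusap1) to 2.09 (Kif23) against goblet cells. Cdc20, the activator of the anaphase-promoting complex, and Ube2c, its ubiquitin-conjugating enzyme, rose by 2.86 ± 0.43 and 3.13 ± 0.57 against colonocytes and 2.51 ± 0.39 (SE, adjusted p = 1.79e-06) and 1.99 ± 0.54 (SE, adjusted p = 0.00321) against goblet cells. Cdca3, a factor of mitotic entry, had the smallest adjusted p of the list against goblet cells, at 2.37 ± 0.34 (SE, adjusted p = 2.39e-07).

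Stmn1 and Hmgb2 were the most abundant members. Stmn1, which destabilises microtubules, had 699 and 606 CPM in crypt-gated, 171 and 88.1 CPM in goblet-gated and 23.4 and 8.59 CPM in colonocyte-gated cells, and rose by 3.74 ± 0.39 (SE, adjusted p = 3.70e-11) and 2.00 ± 0.37 (SE, adjusted p = 3.34e-05). Hmgb2 had 1240.3 and 1139 CPM in crypt-gated, 424 and 254 CPM in goblet-gated and 119 and 71.4 CPM in colonocyte-gated cells, and rose by 2.55 ± 0.32 (SE, adjusted p = 7.15e-09) and 1.75 ± 0.34 (SE, adjusted p = 5.64e-05). Of the 44 genes it kept the highest level in colonocytes.

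Shares of cells with a UMI depend on depth, so each cell was thinned to 2000 UMIs and shallower cells were left out (3 and 1 crypt-gated cells, 168 and 124 neutrophils). The shares come with exact Clopper-Pearson 95% intervals, which cover counting error only. At least 1 UMI of the S list was found in 74.4% (71.6% to 77.1%) of crypt-gated cells in batch 1 and 68.1% (62.1% to 73.7%) in batch 2. The shares were 39.4% (35.9% to 42.9%) and 32.7% (28.6% to 37.0%) in goblet-gated cells and 21.3% (19.3% to 23.5%) and 18.9% (16.8% to 21.1%) in colonocyte-gated cells. For the 22 G2/M genes they were 57.9% (54.8% to 61.0%) and 51.7% (45.5% to 57.9%) in crypt-gated, 19.7% (16.9% to 22.7%) and 11.98% (9.26% to 15.1%) in goblet-gated and 6.13% (4.96% to 7.49%) and 4.33% (3.30% to 5.58%) in colonocyte-gated cells. The 3 classes kept this order with no overlap of intervals in either batch. UMIs of both lists were found in 47.8% (44.6% to 50.9%) and 39.2% (33.2% to 45.3%) of crypt-gated cells, of the S list alone in 26.7% and 28.9%, and of the G2/M list alone in 10.1% and 12.5%. In neutrophils, which should not divide, they were 11.8% (9.25% to 14.8%) and 9.13% (7.10% to 11.5%) for S, and 9.12% (6.87% to 11.8%) and 5.42% (3.86% to 7.36%) for G2/M. Free RNA was not measured apart from these shares, and Kif23 alone gave 11.4 and 16.01 CPM of the 63.9 and 32.4 CPM of the G2/M sum of neutrophils. Before thinning, crypt-gated cells had medians of 20413 and 24071 UMIs and neutrophils 2649 and 2996. The colonocyte G2/M shares lay below those of neutrophils in both batches and are not read as a difference, while single colonocyte-gated cells held up to 365 G2/M UMIs. Without thinning the S share was 97.9% and 97.0% in crypt-gated and 16.9% and 16% in neutrophil-gated cells, and the G2/M share 87.2% and 81.1% in crypt-gated and 12.7% and 8.61% in neutrophil-gated cells.

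**Figure D3:**
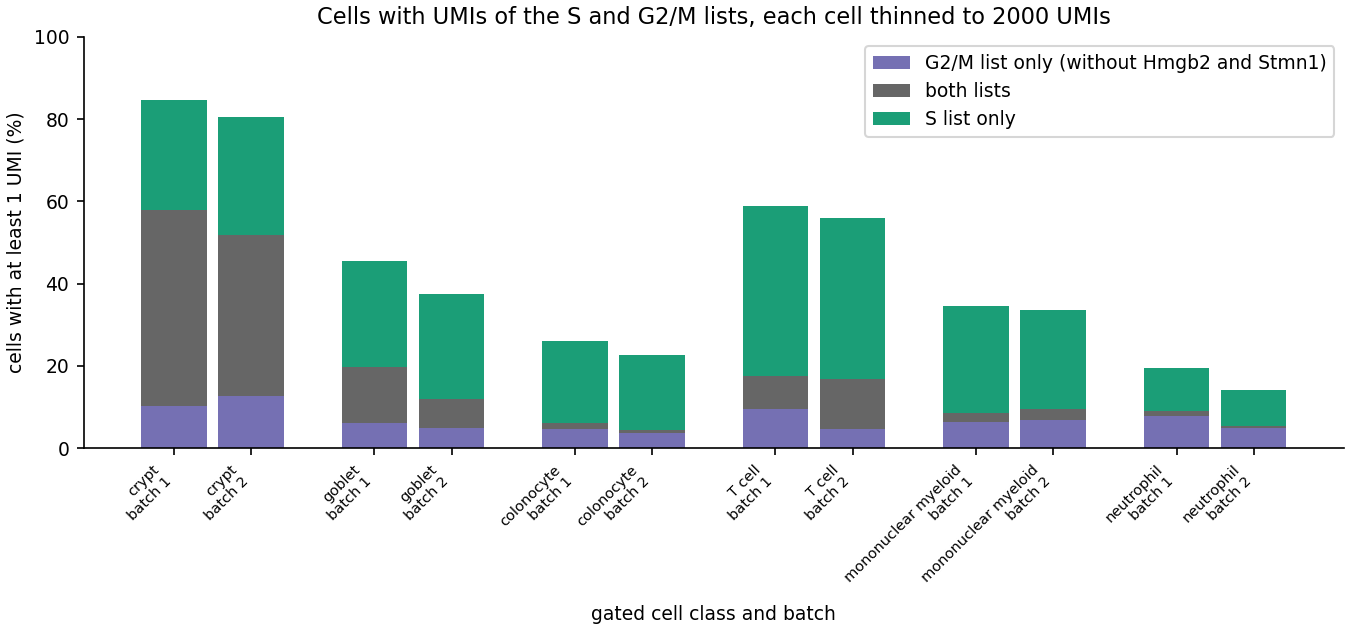
Bars give the percentage of cells of 6 gated classes, per batch, with at least 1 UMI after thinning each cell to 2000 UMIs, split into cells with G2/M genes only (without Hmgb2 and Stmn1), both lists, and S genes only. The part with both lists is 47.8% and 39.2% in crypt-gated cells and 1.43% and 0.608% in colonocyte-gated cells.

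Within crypt-gated cells the lists separated. Cells were thinned to 10000 UMIs and divided by whether they held a UMI of Ccnb1 (184 with and 705 without in batch 1, 40 and 197 in batch 2). All 23 other G2/M genes were found more often in cells with Ccnb1, in both batches, by a median of 44.8 and 39.8 percentage points. The gain ran from 4.99 (Hmgb2) to 56.0 points (Birc5) in batch 1 and from 7.61 to 63.1 points in batch 2. The 20 S genes moved by medians of −2.10 and −3.35 points, and 7 of 20 lay above 0 in each batch. Pclaf stood apart within the S list, found more often with Ccnb1 by 40.6 and 45.4 points, followed by Rrm1 (13.6 and 12.2), Rrm2 (12.9 and 13.2) and Tyms (12.2 and 13.8). Pcna moved by −2.7 and −22.4 points and Ung by −11.0 and −13.4 points. Division by Mcm6 (379 with and 510 without, then 103 and 134) gave the reverse picture. All 19 other S genes were found more often with Mcm6, by medians of 18.5 and 17.4 points, and the G2/M genes moved by medians of 0.262 and −1.52 points, with 12 and 10 of 24 above 0. Top2a (19.9 and 9.9 points), Cdk1 (13.0 and 11.4) and Stmn1 (7.6 and 11.5) went with Mcm6, whereas Ccnb2 (−7.9 and −8.0) and Cenpf (−9.4 and −3.3) went against it. All of these are UMIs of the same cells, so the values are a description with no test.

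**Figure D4:**
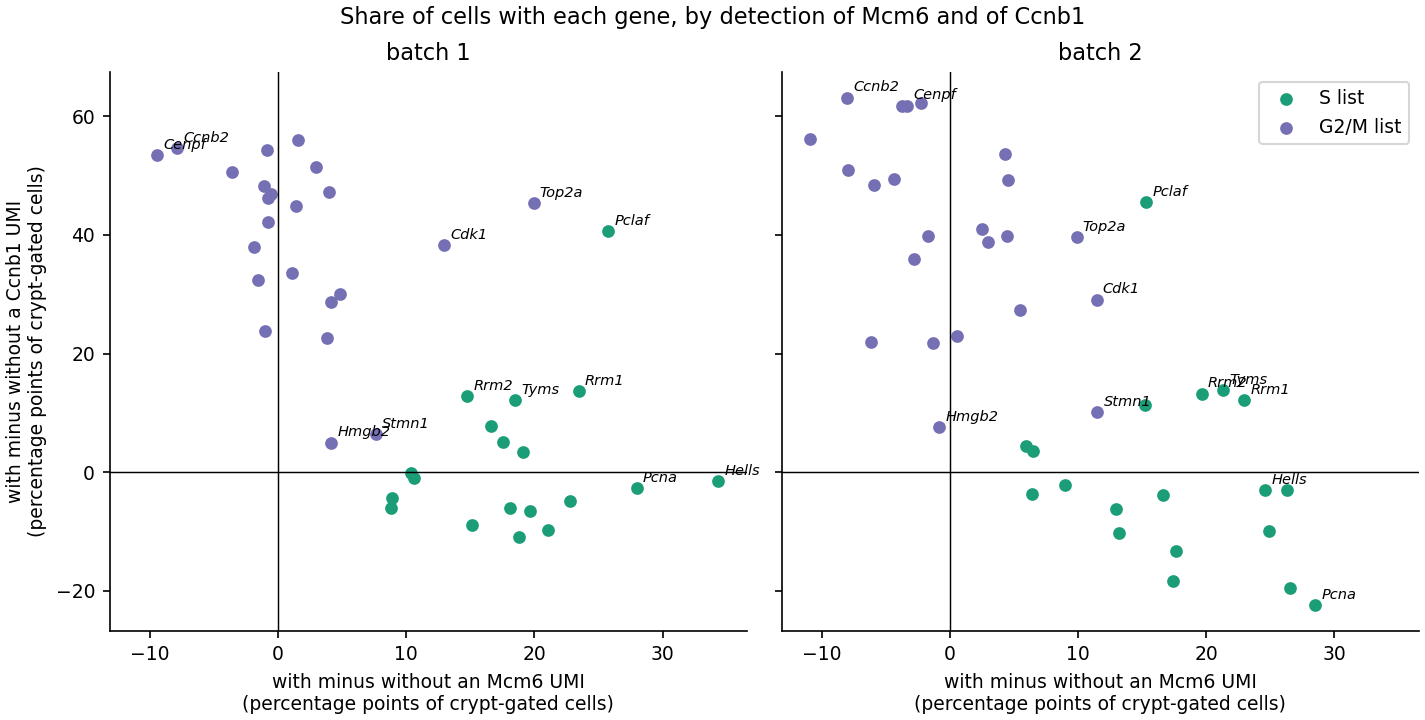
Each point is 1 gene in crypt-gated cells thinned to 10000 UMIs, in batch 1 (left) and batch 2 (right). The x axis gives the share of cells with the gene among cells with an Mcm6 UMI minus that among cells without, and the y axis the same for Ccnb1, both in percentage points. G2/M genes (purple) lie above y = 0, and S genes (green) lie right of x = 0. On the y axis the S genes reach down to −11.0 points (Ung) in batch 1 and −22.4 points (Pcna) in batch 2, and Pclaf is their highest point, at 40.6 and 45.4.

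In leukocytes, T cells carried the S list. In T cells against neutrophils 30 of 44 genes rose and 2 fell, where 20.4% of all genes rose and 28.7% fell. They were 15 of 20 S genes (median log2 fold change 2.88) and 15 of 24 G2/M genes (median 2.6), against −0.22 over all genes. Mcm6 had 59.5 and 63.7 CPM in T cells and 1.31 and 1.42 CPM in neutrophils, and rose by 3.65 ± 0.62 (SE, adjusted p = 3.19e-06). Mcm7, Mcm3 and Tyms rose by 3.51 ± 0.63, 3.19 ± 0.57 and 3.04 ± 0.58, and Pclaf and Hells by 3.94 ± 0.88 and 3.12 ± 0.77. Rrm1 rose by 2.71 ± 0.67 and Pcna, with 109 and 101 CPM in T cells and 14.4 and 12.8 CPM in neutrophils, by 1.31 ± 0.34. Rrm2 had 85.9 and 50.5 CPM in T cells, above 41.4 and 30.8 CPM in crypt-gated cells; neutrophils held 1 and 1 UMIs of it. Among G2/M genes, Top2a had 165 and 118 CPM in T cells and 7.44 and 1.07 CPM in neutrophils (log2 fold change 3.64 ± 0.94) and Stmn1 185 and 139 CPM in T cells and 10.9 and 7.83 CPM in neutrophils (2.50 ± 0.62). Mki67 had 85.9 and 54.1 CPM in T cells and 7.44 and 5.34 CPM in neutrophils and rose by 1.73 ± 0.67 (SE, adjusted p = 0.0277). Mcm4, Cdc6, Cdc45, Ung, Slbp, Ccna2, Ccnb1, Bub1b, Aurka, Plk1, Cenpe and Cdc20 missed the threshold.

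The 4 neutrophil sums tested, here and below, came from cells labelled TG_DSS or TG_WT only. T cells also entered with the tags Ctrl_DSS and Ctrl_WT in batch 1, for which no neutrophil sum entered. The neutrophil sums held only 1 to 3 UMIs of 14 of the 44 genes, so the size of those changes is uncertain. Without batch 2 the count of calls was 11 rather than 32, with Tyms at 1.78, Rrm1 at 2.31 and Hells at 1.39 no longer past the threshold; without batch 1 Hells was at 5.34. The thinned S share was 49.2% (36.4% to 62.1%) and 51.3% (43.0% to 59.6%) in T cells, above the neutrophil share. The G2/M share was 17.5% (9.05% to 29.1%) and 16.7% (11.1% to 23.6%), with an interval that overlapped that of neutrophils in batch 1 and not in batch 2. In T cells labelled TG_DSS in batch 1, 1 cell gave 88.6% of the UMIs of the 22 G2/M genes, in TG_DSS of batch 2 1 cell gave 50.6%, and in TG_WT of batch 2 57.2%. In T cells labelled Ctrl_DSS in batch 1 (37 cells), 1 cell gave 82 of 88 such UMIs (93.2%). The part of single cells in the T cell G2/M level was not tested further.

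In mononuclear myeloid cells 1 gene of the lists rose and 3 fell against neutrophils, where 21.1% of all genes rose and 25.5% fell. Pcna rose by 1.03 ± 0.31 (SE, adjusted p = 0.00571), with 57.4 and 57.9 CPM in mononuclear myeloid cells and 14.4 and 12.8 CPM in neutrophils. Hmgb2 fell by 2.49 ± 0.36 (SE, adjusted p = 2.03e-07) on the log2 scale, with 233 and 193 CPM in mononuclear myeloid cells and 538 and 570.3 CPM in neutrophils. Kif23, a kinesin of cell separation, fell by 2.58 ± 0.47 (SE, adjusted p = 1.42e-05), with 6 and 18 UMIs in mononuclear myeloid cells and 26 and 45 in neutrophils. The third, Cdc45, rests on 0 and 0 UMIs in mononuclear myeloid cells and 0 and 4 in neutrophils; DESeq2 gave it an adjusted p of 0.0764. Without batch 2 the count of calls was 2, and Pcna was at 0.73 and missed the threshold. The thinned S share of mononuclear myeloid cells was 28.3% (22.6% to 34.5%) and 26.7% (23.2% to 30.5%), above that of neutrophils, and their G2/M share was 8.44% (5.23% to 12.7%) and 9.42% (7.17% to 12.1%). The intervals of the G2/M share overlapped those of neutrophils in both batches.

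The high Hmgb2 of neutrophils stood apart from the rest of its list. Neutrophils held 1229 and 1603 UMIs of Hmgb2 but 25 and 22 of Stmn1 and 17 and 15 of Mki67. Against neutrophils, Hmgb2 and Kif23 fell in T cells too with TMM scaling, by 1.13 ± 0.40 (SE, adjusted p = 0.0157) and 1.29 ± 0.52 (SE, adjusted p = 0.0345). These calls were lost with DESeq2-type (RLE) size factors, at −0.47 ± 0.33 (SE, adjusted p = 0.23) and −0.48 ± 0.53 (SE, adjusted p = 0.453). As plain CPM, T cells held 1084 and 566 of Hmgb2 against 538 and 570.3 in neutrophils. Neutrophil markers had medians of 1663.8 and 1790.6 UMIs per 10000 in neutrophils. The median TMM factor was 1.37 in T cell sums, 1.04 in mononuclear myeloid sums and 0.384 in neutrophil sums. With RLE the median log2 fold change of all genes was 0.51 for T cells and 0.35 for mononuclear myeloid cells against neutrophils, where TMM gave −0.22 and −0.05. For crypt-gated cells RLE gave 0.23 against colonocytes and 0.11 against goblet cells. The fall in mononuclear myeloid cells passed with both, at −2.15 ± 0.31 (SE, adjusted p = 1.74e-07) and −2.17 ± 0.49 (SE, adjusted p = 2.38e-04) under RLE.

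The rest of the pathway was read from lists of other genes. In crypt-gated against colonocyte-gated cells, all 30 tested of 31 further replication genes and all 42 tested of 47 further mitotic genes rose, with median log2 fold changes of 2.65 and 2.76. Of 19 G1 regulators, which decide on entry into S phase, 11 rose and 2 fell. E2f1, an activating E2F, rose by 5.47 ± 0.95, Cdk4 and Cdk6, the partners of cyclin D, by 2.88 ± 0.24 and 2.62 ± 0.26, and Myc by 2.43 ± 0.37. Rb1, the retinoblastoma repressor, fell by 1.16 ± 0.22. Of 6 CDK inhibitors tested, 1 rose and 2 fell, where 25.1% of all genes rose and 21.7% fell. These counts are too small to read for the family. Cdkn2b (p15) fell by 3.94 ± 0.31 and Cdkn1a (p21) by 2.78 ± 0.35, whereas Cdkn2c (p18) rose by 1.52 ± 0.37. Against goblet cells 26 of 30 replication and 38 of 42 mitotic genes rose. Cdk4 rose by 1.63 ± 0.22 and Myc by 1.30 ± 0.32 there, Cdkn1a fell by 1.87 ± 0.36, Cdkn2b by 1.01 ± 0.36 and Ccnd3 (cyclin D3) by 0.90 ± 0.28, and Cdkn2c rose by 1.04 ± 0.34. In T cells against neutrophils, 21 replication genes rose and 1 fell, 24 mitotic genes rose and 4 fell, Cdkn1a, Cdkn2d (p19) and Cdkn1b (p27) fell by 4.01 ± 0.47, 3.04 ± 0.37 and 2.26 ± 0.32, and Cdkn2c rose by 2.78 ± 0.64. Of the 6 inhibitors tested, 1 rose and 2 fell against goblet cells, where 14.9% of all genes rose and 16.1% fell. In T cells 1 rose and 3 fell, where 20.4% of all genes rose and 28.7% fell.

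The study's own question is how JUP-KO and DSS change the colon. All epithelial classes together gave 8 sums (2 batches of each tag, 42 to 372 cells), fitted with batch as a block. None of the 44 genes passed in any of the 5 contrasts. Of all 11450 genes, 0% passed for TG_DSS against TG_WT, 0.236% for TG_DSS against Ctrl_DSS, 0% for TG_WT against Ctrl_WT, 0.00873% for Ctrl_DSS against Ctrl_WT and 0% for the interaction, which is the same under both readings of the tags. DESeq2 called 4 members higher for Ctrl_DSS against Ctrl_WT and 0 in the other contrasts. In the order in which the contrasts stand above, 10, 1, 5, 0 and 3 S genes and 13, 0, 1, 17 and 1 G2/M genes had an unadjusted p under 0.05. Over all genes, that share was 6.85%, 8.39%, 4.46%, 13.9% and 6.4%.

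The G2/M list leaned higher in cells labelled Ctrl_DSS than in Ctrl_WT, without a call. Its summed level, Hmgb2 and Stmn1 left out, was 1243 and 634 CPM in TG_DSS, 696 and 327 CPM in TG_WT, 1166 and 647 CPM in Ctrl_DSS and 596 and 281 CPM in Ctrl_WT. In both batches Ctrl_DSS stood above Ctrl_WT and TG_DSS above TG_WT. All 24 genes had a fitted log2 fold change above 0 for Ctrl_DSS against Ctrl_WT, with a median of 1.04, against 0.15 for the S list and 0.02 for all genes. Within batches, 24 and 22 of 24 were higher. Ccnb2 came closest to the threshold. It had 57.2 and 43.3 CPM in cells labelled TG_DSS, 39.96 and 22.2 CPM in cells labelled TG_WT, 55.0 and 46.8 CPM in cells labelled Ctrl_DSS, and 19.4 and 7.44 CPM in cells labelled Ctrl_WT. Every Ctrl_DSS value lay above every Ctrl_WT value, and the Ctrl_WT values rest on 39 and 7 UMIs. Its log2 fold change for Ctrl_DSS against Ctrl_WT was 1.82 ± 0.27 (SE, adjusted p = 0.0625). Birc5 had 143 and 63.6 CPM in cells labelled TG_DSS, 61.1 and 35.0 CPM in cells labelled TG_WT, 121 and 68.2 CPM in cells labelled Ctrl_DSS, and 56.1 and 30.8 CPM in cells labelled Ctrl_WT. Its values gave 1.06 ± 0.19 (SE, adjusted p = 0.0991) for the same contrast. The adjusted p of Ccnb2 was 0.000459 with DESeq2, and without the TG_WT sum of batch 1 or of batch 2 it was 0.0471 or 0.0289, which raised the count of members called to 1 or 2.

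For TG_DSS against TG_WT both lists leaned upward without a call. Fitted changes were above 0 for 20 of 20 S genes (median 0.79) and 24 of 24 G2/M genes (median 0.82), against −0.02 for all genes. Within batches 19 and 19 of 20 S genes and 24 and 18 of 24 G2/M genes were higher. Summed S levels were 857 and 486 CPM in TG_DSS, 523 and 232 CPM in TG_WT, 669.6 and 543 CPM in Ctrl_DSS and 496 and 561 CPM in Ctrl_WT. Cdk1 came closest to the threshold, with 67.8 and 47.4 CPM in cells labelled TG_DSS, 34.8 and 15.5 CPM in cells labelled TG_WT, 63.7 and 35.7 CPM in cells labelled Ctrl_DSS, and 38.7 and 17.0 CPM in cells labelled Ctrl_WT. The fit gave 1.13 ± 0.21 (SE, adjusted p = 0.324) as its log2 fold change. Mki67 had 119 and 50.1 CPM in cells labelled TG_DSS, 65.5 and 19.0 CPM in cells labelled TG_WT, 91.9 and 53.0 CPM in cells labelled Ctrl_DSS, and 44.7 and 31.9 CPM in cells labelled Ctrl_WT. TG_DSS exceeded TG_WT in both batches for both genes. Mcm6 had 44.5 and 12.2 CPM in cells labelled TG_DSS, 25.5 and 9.63 CPM in cells labelled TG_WT, 31.2 and 27.7 CPM in cells labelled Ctrl_DSS, and 26.3 and 25.5 CPM in cells labelled Ctrl_WT. Pcna had 101 and 86.7 CPM in cells labelled TG_DSS, 65.8 and 45.5 CPM in cells labelled TG_WT, 80.3 and 66.8 CPM in cells labelled Ctrl_DSS, and 72.0 and 87.2 CPM in cells labelled Ctrl_WT. TG_DSS again exceeded TG_WT in both batches, and for Pcna Ctrl_WT exceeded Ctrl_DSS in batch 2. Ccnb1 did not follow in batch 2: it had 23.8 and 6.77 CPM in cells labelled TG_DSS, 12.5 and 15.2 CPM in cells labelled TG_WT, 24.1 and 17.6 CPM in cells labelled Ctrl_DSS, and 10.9 and 1.06 CPM in cells labelled Ctrl_WT. Ccne1 had 18.0 and 10.8 CPM in cells labelled TG_DSS, 3.74 and 2.92 CPM in cells labelled TG_WT, 7.25 and 7.07 CPM in cells labelled Ctrl_DSS, and 6.45 and 10.6 CPM in cells labelled Ctrl_WT, and so was highest in TG_DSS in both. Top2a had 154 and 123 CPM in TG_DSS against 84.8 and 21.9 CPM in TG_WT. Rrm2 had 27.0 and 20.3 CPM in TG_DSS against 17.4 and 10.5 CPM in TG_WT.

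Several measured facts stand beside these levels, and their part in them was not tested. The share of colonocyte-gated cells among epithelial cells was 28.2% and 40.5% in TG_DSS, 26.6% and 40.5% in TG_WT, 12.2% and 28.5% in Ctrl_DSS, and 46.2% and 53.6% in Ctrl_WT. Goblet-gated cells made up 43.2% and 42.2% in Ctrl_DSS and 18.7% and 10.7% in Ctrl_WT, and crypt-gated cells 17.4% and 9.95% in Ctrl_DSS and 13.2% and 8.93% in Ctrl_WT. In the other tags, goblet-gated cells made up 19.7% and 21.4% in TG_DSS and 30.6% and 21.5% in TG_WT. Crypt-gated cells made up 19.7% and 4.76% in TG_DSS and 13.8% and 6.13% in TG_WT. Between TG_DSS and TG_WT the colonocyte share thus differed little in either batch. Single cells weighed heavily in small sums. In Ctrl_WT, 1 cell gave 30.4% of the G2/M UMIs of batch 1 (365 of 1201) and 67.0% of batch 2 (177 of 264), and in TG_DSS of batch 2 1 cell gave 43.2%. In Ctrl_DSS the richest cell gave 4.86% and 6.12%. Of the S list, 1 cell gave 45.7% of the UMIs in TG_DSS of batch 2 (164 of 359) and 51.9% in Ctrl_WT of batch 2 (274 of 528), whose S sum was 182 CPM with a posterior of 0.99 for a tag. The thinned G2/M share of epithelial cells was 32.8% (21.8% to 45.4%) and 10.0% (2.79% to 23.7%) in TG_DSS, 22.5% (18.0% to 27.6%) and 17.3% (11.7% to 24.2%) in TG_WT, 31.0% (25.7% to 36.7%) and 20.4% (16.4% to 25.0%) in Ctrl_DSS, and 23.6% (15.2% to 33.8%) and 10.9% (4.11% to 22.2%) in Ctrl_WT. These intervals overlapped within each batch. Tag counts separated epithelial cells weakly. The Ctrl_WT tag had medians of 290.0 and 78 in cells labelled Ctrl_WT, against 123 and 22 in untagged epithelial cells. With a posterior of 0.99 for a tag, the G2/M sum of batch 1 was 1305.9 CPM in Ctrl_DSS and 1205.6 CPM in Ctrl_WT. With the highest-tag rule it was 1161.3 CPM in Ctrl_DSS and 1556.9 CPM in Ctrl_WT, so the direction turned in that batch. In batch 2 Ctrl_DSS stayed above Ctrl_WT, at 572 CPM in Ctrl_DSS (122 cells) and 27.2 CPM in Ctrl_WT (21 cells) with the posterior of 0.99, and at 543 CPM in Ctrl_DSS (135 cells) and 25.98 CPM in Ctrl_WT (38 cells) with the highest-tag rule.

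**Figure D5:**
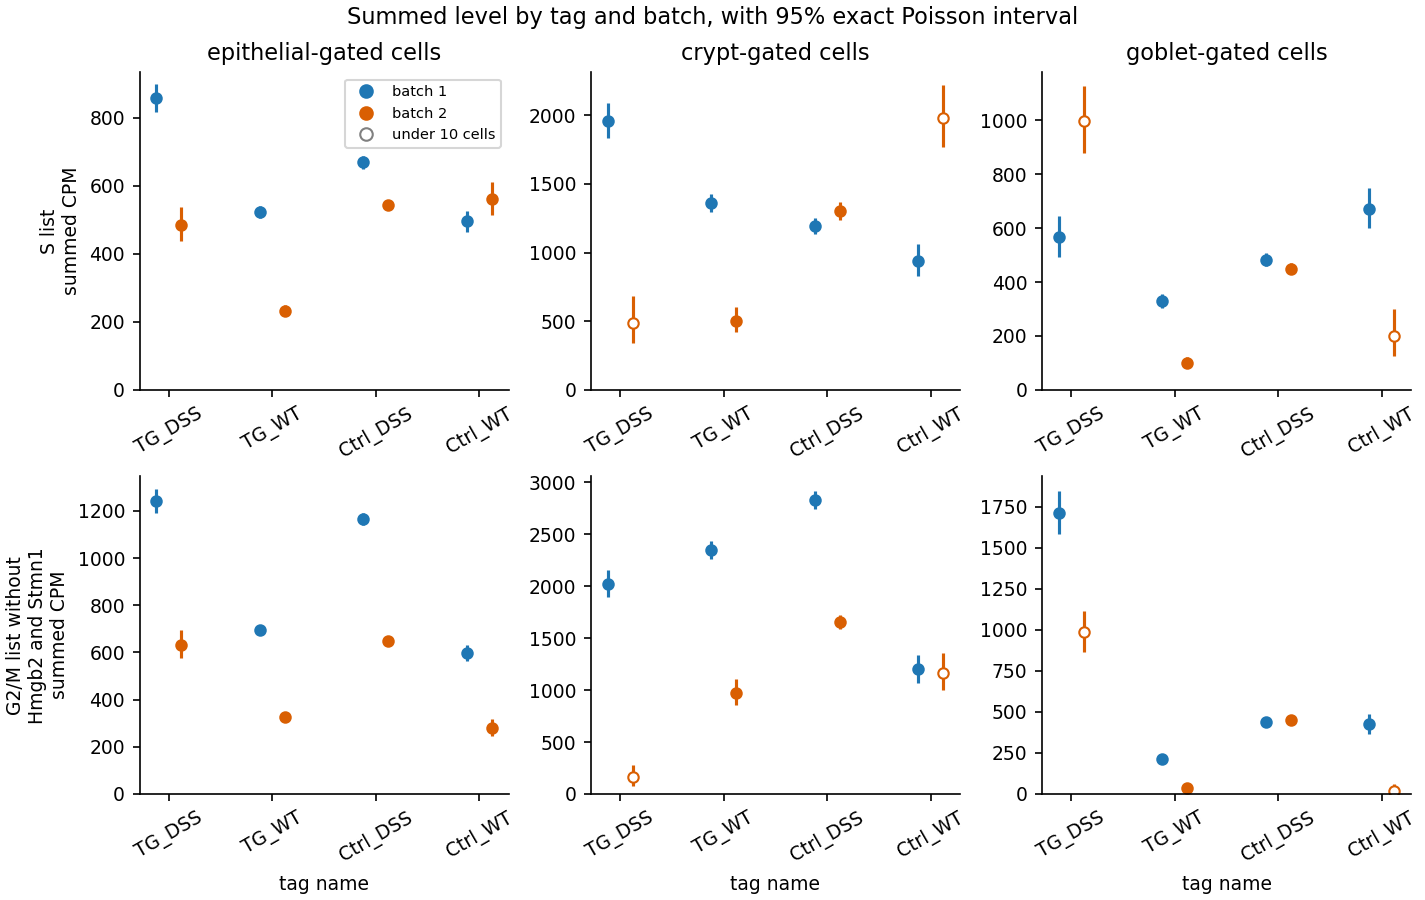
Summed CPM of the S list (top) and of the G2/M list without Hmgb2 and Stmn1 (bottom) by tag name, for epithelial cells together, crypt-gated cells and goblet-gated cells. Points are batch 1 (blue) and batch 2 (orange), bars are 95% exact Poisson intervals of the counts, and open points mark small sums. Within goblet-gated cells TG_DSS has the highest G2/M sum in both batches, with open points where a sum holds under 10 cells.

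Within crypt-gated cells, 6 sums of at least 10 cells entered (none for TG_DSS or Ctrl_WT in batch 2), and none of the 44 genes passed in any contrast. The share of all 9354 genes called was 0.321% for TG_DSS against TG_WT, 0.577% for TG_DSS against Ctrl_DSS, 0.0535% for TG_WT against Ctrl_WT, 0.192% for Ctrl_DSS against Ctrl_WT and 0.0107% for the interaction; DESeq2 called 0 members in each. In the same order, 4, 2, 2, 2 and 0 S genes and 2, 8, 6, 13 and 11 G2/M genes had an unadjusted p under 0.05, against 5.9%, 5.72%, 4.14%, 5.95% and 4.58% of all genes. In batch 1, G2/M sums of crypt-gated cells were 2019.8 CPM in TG_DSS (14 cells), 2347 CPM in TG_WT (45 cells), 2827 CPM in Ctrl_DSS (50 cells) and 1198 CPM in Ctrl_WT (12 cells). S sums were 1962, 1360.4, 1192 and 941 CPM in the same order. In Ctrl_WT, 1 cell gave 36.6% of the G2/M UMIs (116 of 317). The G2/M sum of Ctrl_WT was 4565 CPM (3 cells) with a posterior of 0.99 and 4625 CPM (2 cells) with the highest-tag rule. Ctrl_DSS had 2554 CPM (9 cells) and 2296 CPM (12 cells), so the order of Ctrl_DSS and Ctrl_WT turned under both. The lists leaned in different directions for TG_DSS against Ctrl_DSS, with fitted changes above 0 for 18 of 20 S genes and 1 of 24 G2/M genes. Within batch 1, the one batch in which TG_DSS entered, 20 of 20 S genes and 6 of 24 G2/M genes were higher, and 1 cell gave 31.0% of the G2/M UMIs of TG_DSS. With the highest-tag rule the G2/M sum of batch 1 was 3091 CPM in TG_DSS (5 cells) and 2296 CPM in Ctrl_DSS (12 cells), so the direction turned. With the posterior of 0.99 it was 2471 CPM in TG_DSS (4 cells) and 2554 CPM in Ctrl_DSS (9 cells), so the direction held. The part of single cells and of the tag rule in this lean was not tested further. The gene nearest to a call was Ube2c, at −1.32 ± 0.31 (SE, adjusted p = 0.114), and 1 member was called in this contrast without the Ctrl_WT sum. The fit has 1 residual degree of freedom.

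Goblet-gated cells gave the 1 member called between tags. For TG_DSS against TG_WT, 0.104% of all 10544 genes passed and 0.0664% rose. Ube2c rose by 3.67 ± 0.47 (SE, adjusted p = 0.0424). It had 193 and 35.3 CPM in TG_DSS (77 and 9 UMIs, the second from 9 cells that did not enter the fit), 17.5 and 3.56 CPM in TG_WT, 47.1 and 55.2 CPM in Ctrl_DSS and 36.2 and 8.73 CPM in Ctrl_WT. TG_DSS stood above TG_WT in both batches and above Ctrl_DSS only in batch 1. Smc2, a condensin subunit outside the list that was singled out after its value was seen, rose beside it by 3.41 ± 0.42. Next came Cdca3 at 3.41 ± 0.46 (SE, adjusted p = 0.0595), Cenpf at 2.86 ± 0.43 (SE, adjusted p = 0.0774) and Birc5 at 3.53 ± 0.54 (SE, adjusted p = 0.0774). The list medians were 1.44 for S and 3.17 for G2/M, against −0.08 for all genes, and 5 S and 21 G2/M genes had an unadjusted p under 0.05, against 9% of all genes. The TG_DSS sum of batch 1 comes from 14 cells, of which 1 gave 332 of 683 G2/M UMIs (48.6%), and whether that cell decides the call was not tested. Of the 14 cells, 5 kept the TG_DSS label with a posterior of 0.99 and 4 with the highest-tag rule. The G2/M sum of TG_DSS in batch 1 was 1709 CPM, 1791 CPM with that posterior (7 cells) and 948 CPM with that rule (5 cells). In TG_WT of batch 1 it was 215, 265 and 169 CPM in the same order. The call was lost without the batch block (adjusted p = 0.33), with DESeq2 (0.0686), with at most 10% mitochondrial UMIs (0.0595) and with the stricter gate (0.187). In the other contrasts no member passed: 0.0948% of all genes passed for TG_DSS against Ctrl_DSS, 0.019% for TG_WT against Ctrl_WT, 0.00948% for Ctrl_DSS against Ctrl_WT and 0.019% for the interaction. DESeq2 also called 0 there, and in that order 1, 8, 0 and 3 S genes and 15, 7, 0 and 15 G2/M genes had an unadjusted p under 0.05. Over all genes, that share was 8.95%, 6.26%, 4.97% and 7.61%.

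In mononuclear myeloid cells only Hmgb2 and Pcna passed the filter on low counts, and neither passed a test between tags, nor did any of 3564 genes (0%) with edgeR. At an unadjusted p under 0.05 neither passed as well, and DESeq2 called neither. T cells gave 5 sums and no residual degree of freedom with the batch block. Without it, 22 members were tested among 3212 genes and 0 passed in 5 contrasts, with 0 to 4 at an unadjusted p under 0.05 in edgeR. Of all genes, 9 passed for TG_DSS against TG_WT and 0 in the other contrasts.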

How the data were processed

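Colon cells of 4 tagged conditions were profiled in 2 batches. The deposited matrices hold UMI counts per gene, antibody feature and barcode, not normalized; Cell Ranger 7.0.0 and mm10 are named per the submitters' processing notes. The matrices list all barcodes (2082989 and 1567140, totals of 133919905 and 95408149 UMIs). Cells were called here against the ambient profile (at least 500 UMIs, ambient at most 100, 10000 draws, adjusted p of 0.01) then dropped below 250 genes or above 25% mitochondrial UMIs. Cells with several tags (3.72% and 10.8%) were left out as doublets, and doublets within a tag were not removed. Classes were gated on marker sums per 10000 UMIs with at least 3 markers detected. CPM levels use gated cells with 1 tag or none, and tests use tagged cells only.

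UMI sums of at least 10 cells were tested with edgeR 4.0.16 (quasi-likelihood, TMM, filterByExpr, Benjamini-Hochberg over all genes tested, threshold 0.05) in R 4.3.3. Batch pairs the sums by design, since all tags of a batch were mixed and loaded together, and entered as a block. Cells, levels and figures used Python 3.11.15. Alternatives were DESeq2 1.42.0, RLE factors, no filter, no block, other gates, tag rules and mitochondrial limits, and each sum or batch left out. The edgeR fits were tried on simulated sums for TG_DSS against TG_WT in epithelial and goblet-gated cells and for crypt-gated against goblet-gated cells. Cell calling, tag calling, gates and thinning were not simulated. Named were members past a test (up to 12 a contrast), the 5 highest of each list in crypt-gated cells, members that missed the filter and 12 fixed genes; other members are named by role. The members and lists were chosen with earlier results of these data known. Intervals cover counting error only.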

Additional observations from a re-analysis of the deposited data

Results flagged for a closer look

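In mononuclear myeloid cells the G2/M sum without Hmgb2 and Stmn1 moved in opposite directions in the tag pairs. The log2 ratio of TG_DSS to TG_WT was 0.39 and 0.35 in batches 1 and 2, and that of Ctrl_DSS to Ctrl_WT was −5.06 and −0.81; the difference was not tested at the level of the list. In Ctrl_WT of batch 1, 103 of the 106 UMIs came from 1 cell (97.2%). The other sums were small as well. Ctrl_DSS held 2 and 10 UMIs (10 and 29 cells) in batches 1 and 2. Ctrl_WT of batch 2 held 6 UMIs (14 cells) and TG_WT of batch 1 held 7 (23 cells). The size and direction of these ratios are therefore uncertain. Epithelial cells with no tag, which enter no comparison, held 928.8 and 466.1 CPM of the same genes, above 596.0 and 280.6 CPM in cells labelled Ctrl_WT. With 2 batches a tag, samples were not screened for values far from the others.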

How the results depend on the processing

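Counts of members called kept within 1.5 times of those reported, and single genes kept their direction, except as follows; the cause was not tested. Over all alternatives of single genes, 10 lost and 7 gained the threshold, and 378 did neither. For these alternatives the share of all genes called is not given. Their counts of members, here and above, are therefore not read as particular to the members. With the stricter gate, changes in crypt-gated cells against colonocytes were larger for Cdca3 (5.57), Cdk1 (5.48), Mki67 (5.79) and Stmn1 (5.92). Without the filter on low counts, calls in crypt-gated cells numbered 1 for TG_DSS against TG_WT, 4 for TG_DSS against Ctrl_DSS, 9 for Ctrl_DSS against Ctrl_WT and 4 for the interaction; in epithelial cells 9 for TG_DSS against TG_WT, 1 for TG_WT against Ctrl_WT, 12 for Ctrl_DSS against Ctrl_WT and 1 for the interaction; in goblet-gated cells 21 for TG_DSS against TG_WT, 9 for TG_DSS against Ctrl_DSS, 6 for TG_WT against Ctrl_WT and 12 for the interaction; in mononuclear myeloid cells 1 for TG_WT and 1 for Ctrl_DSS, each against Ctrl_WT. For goblet TG_DSS against TG_WT, RLE gave 6 calls, and DESeq2, at most 10% mitochondrial UMIs, the stricter gate and the fit without the batch block gave 0. DESeq2 gave 4 calls for epithelial Ctrl_DSS against Ctrl_WT. Leaving out 1 sum gave 0 to 2 there and 1 for crypt TG_DSS against Ctrl_DSS; leaving out a batch gave 11 to 33 for T cells and 2 to 4 for mononuclear myeloid cells against neutrophils, and 38 to 41 against colonocytes and 23 to 38 against goblet cells for crypt-gated cells. Without the replicate block the other counts between tags stayed 0, and the class counts were 43, 40, 5 and 27. Mean shares over batches with thinning to 1000 UMIs, and with none, were 51.8% and 97.42% (crypt, S), 45.35% and 84.11% (crypt, G2/M), 21.5% and 82.15% (goblet, S), 15.37% and 54.9% (mononuclear myeloid, S), 5.053% and 20.68% (mononuclear myeloid, G2/M), 27.69% and 67.94% (T cell, S) and 12.94% and 24.29% (T cell, G2/M); for goblet G2/M no thinning gave 45.75%. The highest-tag rule and the posterior of 0.99, added after seeing the data, could be fitted for epithelial and mononuclear myeloid cells only and called 0 members. The tag fits hold 0 to 3 residual degrees of freedom, which with sums of few cells limits what could be called.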
